A study of Mus musculus with 12 samples.

Results

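The 9 genes described here were those whose mouse gene symbol in the deposited tables was Nefl, Nefm, Nefh, Thy1, Pou4f1, Pou4f2, Sncg, Rbpms or Slc17a6, out of 37991 genes. All 9 symbols matched 1 row each, and all 9 are protein-coding, autosomal and polymorphic between the strains. They were read from retinas of male mice aged 8 weeks in 12 libraries, 3 biological replicates in each of 4 groups. F0 C57BL/6J is the standard reference strain and F0 Cast/EiJ a wild-derived inbred strain. F1 B6xCast hybrids came from C57BL/6J males and Cast/EiJ females, and F1 CastxB6 hybrids from Cast/EiJ males and C57BL/6J females. The labels name no transgene and no treatment in any group. Each library pooled 6 to 8 retinas, so a value describes a pool of whole retinas and not a cell or a single mouse. The study compared strains and alleles to separate cis-regulatory from trans-regulatory and parent-of-origin differences, and for ganglion cell genes the same contrasts bear on cell number, because both alleles of an F1 retina sit in the same cells.

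Retinal ganglion cells are the output neurons of the retina. Their axons form the optic nerve, and in a whole retina they are a small minority beside the photoreceptors. Neurofilaments are intermediate filaments that set the calibre of large axons, and they are built from a light (Nefl), a medium (Nefm) and a heavy chain (Nefh). In the retina they are most abundant in ganglion cell bodies and axons and also occur in horizontal cells. Thy1 encodes a surface glycoprotein long used as a ganglion cell marker, and Pou4f1 and Pou4f2 encode the POU-domain transcription factors Brn3a and Brn3b. Sncg encodes gamma-synuclein, Rbpms an RNA-binding protein found throughout the ganglion cell class, and Slc17a6 the vesicular glutamate transporter VGLUT2, which loads glutamate into their synaptic vesicles.

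In NCBI37 coordinates, 4 of the 9 genes lie on chromosome 14. Nefl (ENSMUSG00000022055) spans chr14:68701920-68707152 on the plus strand, and Nefm (ENSMUSG00000022054) spans chr14:68700647-68742903 on the minus strand across the same place. Of the 3380 exonic bases of Nefl, 1108 (32.8%) lie inside exons of Nefm, and the libraries kept no strand, so reads from the shared bases cannot be told apart between the pair. Sncg (ENSMUSG00000023064) spans chr14:35183460-35187975 and Pou4f1 (ENSMUSG00000048349) chr14:104861537-104867208, both on the minus strand. Nefh (ENSMUSG00000020396) lies at chr11:4838757-4848067 on the minus strand, Thy1 (ENSMUSG00000032011) at chr9:43851467-43856662 on the plus strand, and Slc17a6 (ENSMUSG00000030500) at chr7:58877200-58926495 on the plus strand. Pou4f2 (ENSMUSG00000031688) lies at chr8:80956908-80960544 and Rbpms (ENSMUSG00000031586) at chr8:34893116-35040313, both on the minus strand. Rbpms overlaps 2 annotated genes whose mean levels were 1.01 and 0.136 count equivalents, a count equivalent being the authors' estimate of the read pairs of a gene after scaling all libraries to a common size.

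These promoters are shown because the alleles of these genes differed in opposite directions in the F1 retinas, Sncg being lower and Slc17a6 higher from the Cast/EiJ allele. Each line gives the 250 bases before an annotated start, 5′ to 3′ on the strand of the gene, from RefSeq on GRCm38.p6, a later build than that of the expression tables. The assembly is of C57BL/6J, so the letters are those of the C57BL/6J allele. Capitals mark a GC box (CCGCCC, the reverse complement of GGGCGG, bound by SP factors) beginning 78 bases before the start in Sncg at chr14:34374670-34374919 on the minus strand, and the letters ATTAAT, the core recognised by POU4F factors, beginning 83 bases before the second listed start of Slc17a6 at chr7:51624387-51624636 on the plus strand.
Sncg: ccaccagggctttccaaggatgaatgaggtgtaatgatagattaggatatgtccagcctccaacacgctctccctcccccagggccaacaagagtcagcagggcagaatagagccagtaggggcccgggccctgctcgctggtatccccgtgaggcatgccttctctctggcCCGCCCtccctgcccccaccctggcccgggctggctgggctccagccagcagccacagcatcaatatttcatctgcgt
Slc17a6: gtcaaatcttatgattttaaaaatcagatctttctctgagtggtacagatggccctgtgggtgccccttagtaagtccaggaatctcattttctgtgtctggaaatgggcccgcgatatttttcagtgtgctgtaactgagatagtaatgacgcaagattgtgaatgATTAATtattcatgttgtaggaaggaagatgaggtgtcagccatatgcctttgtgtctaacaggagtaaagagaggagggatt
RefSeq entries were at hand for 4 of the 9 genes, Sncg, Slc17a6, Pou4f1 and Pou4f2, with 5 windows of 250 bases before and 50 after a start. On either strand, GGGCGG occurred in 4 of these 5 windows against 35.7% of all 32851 windows, ATTAAT in 1 against 4.75%, and the TATA box TATAAA in 0 against 13.6%. These are matches of letters, and binding was not measured.

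Unique hits, the read pairs that mapped to a single gene and, in an F1 library, to a single allele, numbered between 8158534 and 12363291 per library, with the lowest group median, 8234902, in F0 Cast/EiJ. The deposited count equivalents had been scaled to between 12648792 and 13843914 per column, so an F1 total is given here as the mean of its 2 allele columns. Genes that mark rods, the main cell of the retina, summed to between 813005 and 885940 count equivalents in the 12 libraries, and all 9 ganglion cell genes were at 111 count equivalents or more in every library. In F0 C57BL/6J, F0 Cast/EiJ and F1 B6xCast the replicate numbered 1 was the highest of its group for Pou4f1, Pou4f2 and Rbpms. It was the lowest for Nefl and Sncg. In these 3 libraries Pou4f2 was above the mean of its group by 0.17, 0.48 and 0.18 on the log2 scale, while Nefl was at -0.10, -0.11 and -0.17. For Nefl, replicate 3 lay farther from the mean in F0 C57BL/6J (0.125) and F0 Cast/EiJ (0.138). The 3 replicates numbered 1 of these groups are called the libraries that stood apart, by this pattern and not by an outlier test. Results that change when these 3 libraries are left out are given both ways.

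Per transcript length, in fragments per kilobase of transcript scaled to sequencing depth (FPKM), the levels of the 9 genes spanned a wide range. In F0 C57BL/6J, Nefl was the most abundant at 112 ± 8.98 FPKM (SD, n = 3), above Sncg at 82.0 ± 5.88 and Thy1 at 81.3 ± 5.92, which overlapped each other. Nefm followed at 37.2 ± 3.81 and Nefh at 21.0 ± 2.05 FPKM, so the chains were ordered light, medium, heavy with no overlap between them. Slc17a6 at 10.6 ± 0.952, Rbpms at 9.72 ± 1.82 and Pou4f1 at 9.50 ± 1.54 FPKM overlapped one another, and Pou4f2 was lowest at 2.43 ± 0.265.

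The order was different in F0 Cast/EiJ at its top and not at its foot. There Sncg led at 78.6 ± 6.16 FPKM, overlapping Nefl at 70.4 ± 5.90, and Thy1 stood at 48.9 ± 2.26. Nefm was at 25.4 ± 1.57 and Nefh at 11.1 ± 0.984 FPKM, the latter now overlapping Rbpms at 9.55 ± 1.25. Slc17a6 was at 9.55 ± 0.495, Pou4f1 at 7.13 ± 0.913 and Pou4f2 again lowest at 2.33 ± 0.731 FPKM. In both F1 crosses Sncg and Nefl shared the top with overlapping ranges, between 76.5 and 105 FPKM, and Thy1 came next at 68.8 ± 2.52 in F1 B6xCast and 68.0 ± 2.23 in F1 CastxB6.

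**Figure D1:**
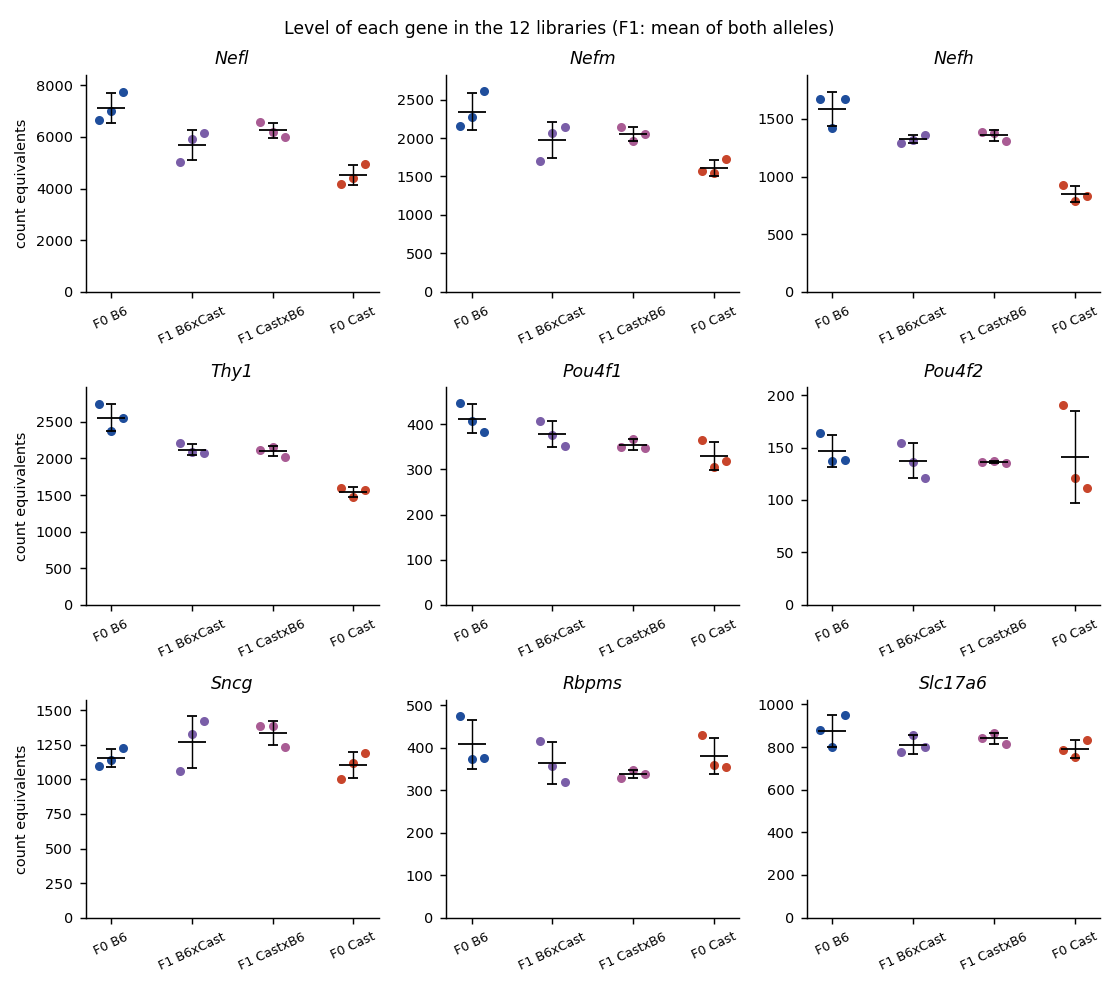
Count equivalents of the 9 genes (vertical axes, each starting at 0) in the 12 libraries by group, with points for libraries and bars for the mean and SD (n = 3). In the panels of Nefl, Nefh and Thy1 the F1 libraries lie between the F0 groups, which do not overlap, while in those of Pou4f2, Sncg, Rbpms and Slc17a6 the F0 groups overlap.

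The comparison of the F0 strains asks which genes differ in level between C57BL/6J and Cast/EiJ retinas, for whatever reason. The 3 neurofilament chains, Thy1 and Pou4f1 were lower in Cast/EiJ, and Pou4f2, Sncg, Rbpms and Slc17a6 did not pass the test. The log2 difference (Cast/EiJ minus C57BL/6J) was negative for all 9, with a median of -0.32 against 0.03 over the 14452 genes tested. At an adjusted p under 0.05 (limma on log2 of count equivalents plus 1, Benjamini-Hochberg over all genes tested), 5 of the 9 genes were called, against 33.8% of all genes tested in either direction. All 5 were lower in Cast/EiJ, against 16.6% of all genes. Of the 4887 calls over all genes, 50.9% were higher in Cast/EiJ, and of the 4635 calls with TMM factors added to the deposited scaling, 36.6% were. In bulk retina, fewer ganglion cells and less RNA per ganglion cell cannot be told apart in this comparison.

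The heavy chain Nefh showed the widest gap among the 9 genes. It was at 1670, 1420 and 1670 count equivalents in the 3 C57BL/6J libraries and at 925, 788 and 836 in the 3 Cast/EiJ libraries. Every C57BL/6J library was above every Cast/EiJ library, and the difference of -0.90 (SE 0.093, adjusted p = 0.00012 by limma) corresponds to a 1.87-fold lower level. Nefl was at 6640, 6990 and 7760 count equivalents in C57BL/6J and at 4190, 4420 and 4970 in Cast/EiJ. These groups did not overlap either, and Nefl was 1.58-fold lower in Cast/EiJ (log2 difference -0.66, SE 0.087, adjusted p = 0.00057 by limma). Nefm, whose exons overlap those of Nefl, was at 2150, 2270 and 2610 count equivalents in C57BL/6J and at 1570, 1540 and 1730 in Cast/EiJ. It too was separated by strain, at 1.45-fold lower in Cast/EiJ (log2 difference -0.54, SE 0.088, adjusted p = 0.0019 by limma).

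Thy1, the surface glycoprotein, lay between Nefh and Nefl in the size of its gap. Its libraries stood at 2740, 2380 and 2560 count equivalents in C57BL/6J and at 1590, 1470 and 1570 in Cast/EiJ. The groups were well apart, and Thy1 was 1.66-fold lower in Cast/EiJ (log2 difference -0.73, SE 0.074, adjusted p = 0.00011 by limma). The calls of Nefl, Nefm, Nefh and Thy1 held in 17 of 17 alternative fits, including those without any single library.

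The POU-domain factors gave smaller and less certain values. Pou4f1 was at 447, 407 and 383 count equivalents in C57BL/6J and at 364, 306 and 319 in Cast/EiJ, 1.25-fold lower without overlap (log2 difference -0.32, SE 0.104, adjusted p = 0.041 by limma). That call was near its threshold and held in 10 of 17 alternatives. Without replicate 1, 2 or 3 of C57BL/6J, or without replicate 2 or 3 of Cast/EiJ, the adjusted p lay between 0.0502 and 0.13. Pou4f2 was at 164, 137 and 138 count equivalents in C57BL/6J and at 191, 121 and 111 in Cast/EiJ, where a single library exceeded all others. The difference of -0.09 (adjusted p = 0.76 by limma) had a 95% interval from -0.56 to 0.38, which includes the value of -0.54 measured for Nefm.

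The other pan-ganglion-cell genes overlapped between strains. Sncg was at 1100, 1140 and 1230 count equivalents in C57BL/6J and at 1000, 1120 and 1190 in Cast/EiJ, a difference of -0.07 (95% interval -0.26 to 0.12, adjusted p = 0.56 by limma). Rbpms was at 475, 373 and 376 in C57BL/6J and at 430, 359 and 354 in Cast/EiJ, a difference of -0.10 (95% interval -0.38 to 0.19, adjusted p = 0.59 by limma). In both strains the replicate numbered 1 was its highest value. Slc17a6 was at 878, 798 and 950 count equivalents in C57BL/6J and at 784, 752 and 834 in Cast/EiJ, a difference of -0.14 (95% interval -0.34 to 0.05, adjusted p = 0.23 by limma). The intervals of Sncg, Rbpms and Slc17a6 all ended above the value of -0.54 measured for Nefm. The intervals of Rbpms and Slc17a6 nevertheless overlapped that of Nefm (-0.74 to -0.34), and differences between genes were not tested. Without the 3 libraries that stood apart, 5 of the 9 genes were again called, the same 5.

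The F1 hybrids compare the alleles inside the same cells. A difference in the number of ganglion cells cancels there, because every cell carries both alleles, and what is left is a difference that travels with the allele, as a cis-regulatory variant would give. Of the 9 genes, 4 differed between alleles at an adjusted p under 0.05, against 47.0% of the 13414 genes tested. Sncg, Thy1 and Nefl were lower from the Cast/EiJ allele and Slc17a6 was higher, while Nefm, Nefh, Pou4f1, Pou4f2 and Rbpms did not pass the test. The median log2 difference of the 9 genes (Cast/EiJ allele minus C57BL/6J allele) was -0.03, and that of all genes tested 0.00.

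Sncg, whose F0 levels overlapped, had by far the widest allelic gap of the 9. Its C57BL/6J allele was at 1970, 2300 and 2520 count equivalents in F1 B6xCast and at 2290, 2360 and 2230 in F1 CastxB6. Its Cast/EiJ allele was at 147, 355 and 330 count equivalents in F1 B6xCast and at 480, 412 and 235 in F1 CastxB6. In all 6 libraries and in both directions of the cross the Cast/EiJ allele was lower, 7.43-fold on average (log2 difference -2.89, SE 0.172, adjusted p = 5.1e-10 by limma), and the log2 ratio ranged from -3.74 to -2.25 between libraries.

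The estimates for Sncg rest on few allele-specific read pairs. Over the 6 F1 libraries 1323 unique hits fell to the C57BL/6J allele and 174 to the Cast/EiJ allele, 11.6% of 1497 (Wilson 95% interval 10.1% to 13.4%, counting error only). An F1 library had between 179 and 298 unique hits for Sncg in all, where an F0 library had between 660 and 1091. In the F0 libraries, mapped to the transcriptome of 1 strain, Sncg had 956, 1091 and 1024 unique hits in C57BL/6J and 660, 741 and 961 in Cast/EiJ. The C57BL/6J allele averaged 2278 ± 181 count equivalents in the F1 (SD, n = 6), where F0 C57BL/6J libraries averaged 1157 ± 66.6 (SD, n = 3). The part that the mapping of Sncg reads to the joint transcriptome of both strains played in the gap between alleles was not tested.

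Thy1 and Slc17a6 differed between alleles by far less and in opposite directions. The C57BL/6J allele of Thy1 was at 2410, 2340, 2270, 2380, 2320 and 2130 count equivalents in the 6 F1 libraries, and its Cast/EiJ allele at 2010, 1830, 1870, 1860, 1990 and 1920 in the same order. The alleles did not overlap, and the Cast/EiJ allele was 1.21-fold lower (log2 difference -0.27, SE 0.041, adjusted p = 4e-05 by limma), with 44.8% of 20747 allele-specific unique hits (Wilson 95% interval 44.1% to 45.5%). For Slc17a6 the C57BL/6J allele was at 720, 815, 695, 843, 802 and 723 count equivalents and the Cast/EiJ allele at 831, 902, 907, 843, 929 and 904. The Cast/EiJ allele was higher in 5 libraries and equal in the other, 1.16-fold on average (log2 difference 0.21, SE 0.055, adjusted p = 0.0042 by limma), with 52.9% of 3458 unique hits (51.2% to 54.6%). These calls of Sncg, Thy1 and Slc17a6 held in 22 of 22 alternatives, some of which left out an F0 library and so kept every F1 value.

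**Figure D2:**
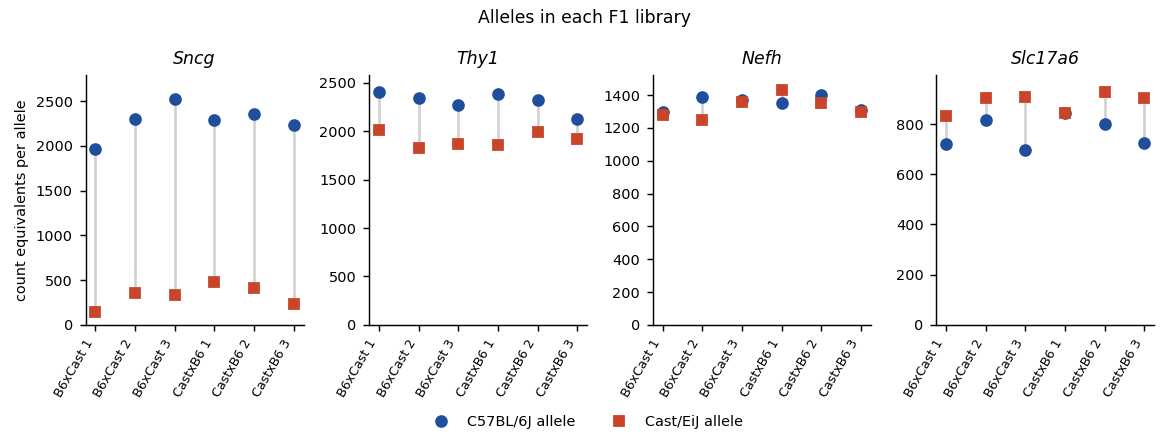
Count equivalents of each allele (vertical axes, each starting at 0) in the 6 F1 libraries, circles for C57BL/6J and squares for Cast/EiJ, joined by a line within a library. The alleles of Sncg lie far apart in every library, those of Thy1 are separated without overlap, those of Nefh sit close together, and the Cast/EiJ allele of Slc17a6 is at or above the C57BL/6J allele.

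The neurofilament genes, which differed most between strains together with Thy1, differed little between alleles. Nefh was at 1300, 1390, 1370, 1350, 1400 and 1310 count equivalents from the C57BL/6J allele and at 1280, 1250, 1360, 1430, 1350 and 1300 from the Cast/EiJ allele. The alleles overlapped, with a difference of -0.03 (95% interval -0.13 to 0.07, adjusted p = 0.67 by limma) and 49.0% of 11672 unique hits from the Cast/EiJ allele. Nefm had a log2 ratio between -0.13 and 0.13 in the 6 libraries, a difference of 0.00 (95% interval -0.14 to 0.14, adjusted p = 1 by limma) and 49.6% of 8859 unique hits from the Cast/EiJ allele. Both intervals excluded the size of the F0 strain difference of the same gene. Nefl was lower from the Cast/EiJ allele in 6 of 6 libraries, at log2 ratios from -0.24 to -0.02, with 46.8% of 14265 unique hits. Its difference of -0.16 (SE 0.059, adjusted p = 0.035 by limma) was called in 13 of 22 alternatives. Without replicate 2 or 3 of F1 B6xCast or replicate 1, 2 or 3 of F1 CastxB6 its adjusted p was between 0.057 and 0.11.

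The transcription factors and Rbpms showed no allelic difference past the threshold. The difference was -0.03 for Pou4f1 (95% interval -0.20 to 0.15, adjusted p = 0.8 by limma), on 989 unique hits. It was 0.03 for Pou4f2 (-0.21 to 0.26, adjusted p = 0.86 by limma), on 554 unique hits, and 0.13 for Rbpms (-0.04 to 0.30, adjusted p = 0.21 by limma), on 1758. The shares from the Cast/EiJ allele were 47.2%, 49.8% and 51.9%, with Wilson intervals that all included equal shares. With Sncg, these 3 genes had the fewest allele-specific unique hits of the 9.

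The part of the F0 strain difference that was not found between alleles was tested in the same model, by subtracting the allelic from the strain difference. It holds any trans-regulatory difference, any difference in the number of cells and any error in assigning F1 reads to alleles, which cannot be told apart here. This remaining difference was called for 6 of the 9 genes, against 14.0% of 13414 genes tested, and was negative for 5 of them, against 8.31% of all genes. The 5 were the neurofilament chains, Thy1 and Slc17a6, and the gene with a positive value was Sncg, whose allelic difference rests on few unique hits. The median over the 9 genes was -0.36, that of all genes 0.00.

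Nefh had the most negative remaining difference of the 9 at -0.87 (SE 0.088, adjusted p = 3.6e-06 by limma), nearly its whole F0 difference. For Nefm it was -0.54 (SE 0.119, adjusted p = 0.006 by limma), equal to its F0 difference at this precision, and for Nefl -0.50 (SE 0.108, adjusted p = 0.005 by limma). Thy1 had both a called allelic and a called remaining difference, the latter -0.46 (SE 0.075, adjusted p = 0.00052 by limma). The values of these 4 genes lay between -0.95 and -0.41 in 22 of 22 alternatives and were called in each.

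Slc17a6 and Sncg, whose F0 differences were not called, had allelic and remaining differences of opposite sign. For Sncg the remaining difference was 2.82 (SE 0.313, adjusted p = 1.1e-05 by limma) and was called in 22 of 22 alternatives. For Slc17a6 it was -0.36 (SE 0.099, adjusted p = 0.023 by limma) and was called in 15 of 22. It lost its call without replicate 3 of F0 C57BL/6J, replicate 1 or 2 of F0 Cast/EiJ, replicate 3 of F1 B6xCast or replicate 2 or 3 of F1 CastxB6 (adjusted p between 0.051 and 0.08), and also without the 3 libraries that stood apart (0.08). Pou4f1 at -0.29 (95% interval -0.61 to 0.02), Rbpms at -0.22 (-0.53 to 0.09) and Pou4f2 at -0.12 (-0.54 to 0.31) were not called. Their intervals included both 0 and the value of Thy1.

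**Figure D3:**
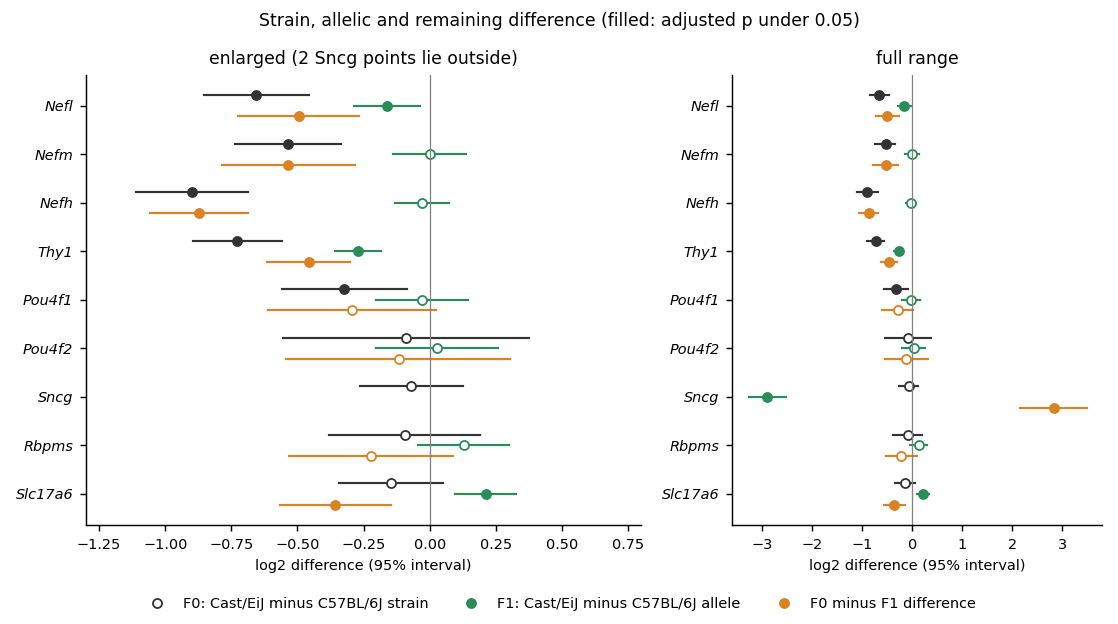
Log2 differences (horizontal axes, 95% intervals) of the 9 genes between F0 strains, between F1 alleles, and F0 minus F1, with filled points for an adjusted p under 0.05. The left panel is enlarged and omits both outlying points of Sncg, which the right panel shows at -2.89 and 2.82. For Nefl, Nefm, Nefh and Thy1 the strain and remaining differences lie well below 0 and the allelic difference lies nearer to it.

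The 2 directions of the cross show whether the parent that gave an allele matters. The maternal minus paternal difference ranged from -0.22 for Sncg to 0.09 for Pou4f1, and 0 of the 9 genes were called by limma, against 0.492% of all genes tested. At an unadjusted p under 0.05 limma gave 0 of the 9 and edgeR on unique hits 1, Sncg, at an unadjusted p of 0.038 and an adjusted p of 0.88.

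The F1 totals were set against both strains to see where the hybrids fall. Nefl, Nefh and Thy1 were intermediate, with 6 of 6 F1 libraries above every Cast/EiJ and below every C57BL/6J library, and Nefm was so in 5 of 6. The 3 comparisons that follow share their F1 libraries and are not independent. F0 and F1 libraries were sequenced on 1 and 2 lanes, which cannot be told apart from the difference between F0 and F1.

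Nefl totals were 5040, 5910 and 6155 count equivalents in F1 B6xCast and 6575, 6180 and 6005 in F1 CastxB6. Nefh totals were 1290, 1320 and 1365 in F1 B6xCast and 1390, 1375 and 1305 in F1 CastxB6. For both chains the reciprocal crosses overlapped, as they did for Thy1, which was at 2210, 2085 and 2070 and at 2120, 2155 and 2025. Nefm was at 1705, 2065 and 2145 in F1 B6xCast and at 2140, 1955 and 2050 in F1 CastxB6. The lowest Nefm and Nefl values were both of replicate 1 of F1 B6xCast, a library that stood apart.

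Against F0 Cast/EiJ, 4 of the 9 genes were called, all higher in the F1, against 17.5% of 14710 genes tested. Nefh was higher by 0.66 (SE 0.065, adjusted p = 1.4e-05 by limma), Thy1 by 0.45 (SE 0.051, adjusted p = 4.1e-05 by limma), Nefl by 0.40 (SE 0.077, adjusted p = 0.0021 by limma) and Nefm by 0.31 (SE 0.081, adjusted p = 0.012 by limma). The call of Nefm was lost without replicate 2 of F0 Cast/EiJ (adjusted p = 0.053). TMM factors raised the median of all genes in this comparison by 0.12 and the share of higher calls from 52.0% to 77.4%, and the deposited log expression gave 64.1%, while these 4 genes were higher and called under each. Sncg at 0.24 (adjusted p = 0.068 by limma) and Pou4f1 at 0.15 (adjusted p = 0.14 by limma) were not called. Both were called without the 3 libraries that stood apart (adjusted p = 0.022 and 0.031), as they were with TMM factors (0.013 and 0.025) and with the deposited log expression (0.048 and 0.014). Sncg was also called without replicate 1 of F1 B6xCast (0.0074) and Pou4f1 without replicate 1 of F0 Cast/EiJ (0.0497).

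Against F0 C57BL/6J, 3 of the 9 genes were called, all lower in the F1, against 9.86% of all genes. Thy1 was lower, at -0.28 (SE 0.051, adjusted p = 0.0026 by limma), in 21 of 21 alternatives. Nefl at -0.26 (SE 0.077, adjusted p = 0.036 by limma) and Nefh at -0.24 (SE 0.065, adjusted p = 0.023 by limma) were called in 14 of 21 each. Nefl lost its call without replicate 2 or 3 of F0 C57BL/6J or replicate 2 or 3 of F1 CastxB6 (adjusted p between 0.068 and 0.15), and Nefh without replicate 1 or 3 of F0 C57BL/6J or replicate 3 of F1 CastxB6 (0.051 to 0.095). Without the 3 libraries that stood apart, Nefh was not called (0.069) and Nefm, at -0.22 with an adjusted p of 0.079 by limma in all libraries, was called (0.044). Over all genes 51.6% of the calls were higher in the F1, and 64.6% with TMM factors.

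Against the mid-parent level, the mean of both strains on the log2 scale, 1 of the 9 genes was called, against 12.2% of all genes. Where the strains differ, a total midway between them in count equivalents lies above 0 on this scale. Nefh lay 0.21 above the mid-parent level (SE 0.053, adjusted p = 0.022 by limma), nearer to C57BL/6J than to Cast/EiJ. It was called in 16 of 21 alternatives and not without replicate 2 of F0 Cast/EiJ, replicate 3 of F1 B6xCast or replicate 1 or 2 of F1 CastxB6 (adjusted p between 0.0503 and 0.057). Of the calls over all genes 58.8% were above the mid-parent level, and 79.1% with TMM factors.

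Sncg had the most F1 libraries beyond both strains among the 9 genes. Its totals were 1058, 1328 and 1425 count equivalents in F1 B6xCast and 1385, 1386 and 1232 in F1 CastxB6, and 5 of 6 were above all F0 libraries. The exception was replicate 1 of F1 B6xCast. Its excess over the mid-parent level, 0.20 (adjusted p = 0.12 by limma), was called without that library (0.26, adjusted p = 0.012) and without the 3 libraries that stood apart (0.21, adjusted p = 0.027). Rbpms had 4 of 6 F1 libraries below all F0 libraries, at a mid-parent difference of -0.16 (95% interval -0.35 to 0.02, adjusted p = 0.26 by limma). Pou4f1, Pou4f2 and Slc17a6 had no F1 library outside the range of the F0 libraries. The Sncg totals are means of allele columns that rest on 179 to 298 unique hits per F1 library. The part of mapping in these totals was not tested.

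Within groups, the 9 genes did not vary as a single block. After the mean of each group was subtracted, Nefl, Nefm and Sncg rose and fell together over the 12 libraries, with Pearson r between 0.80 and 0.93 for the 3 pairs, and so did Pou4f1, Pou4f2 and Rbpms, with r between 0.84 and 0.93. Between these trios all 9 pairs were negative, with r from -0.82 to -0.52. The trios were picked from these same correlations and leave out Nefh, Thy1 and Slc17a6. Thy1 correlated with Pou4f1, Pou4f2 and Rbpms at r from 0.53 to 0.75, and with Nefl, Nefm and Sncg from -0.31 to -0.28. All pairs share library preparation and depth and are given as a description. Without the libraries numbered 1 of F0 C57BL/6J, F0 Cast/EiJ and F1 B6xCast the r between trios ran from -0.52 to -0.26, and within trios from 0.56 to 0.91. Leaving them out also moved the r of Nefl with Nefh from 0.11 to 0.69 and of Nefl with Thy1 from -0.28 to 0.53. Nefl and Nefm, at r = 0.93, share exonic bases.

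**Figure D4:**
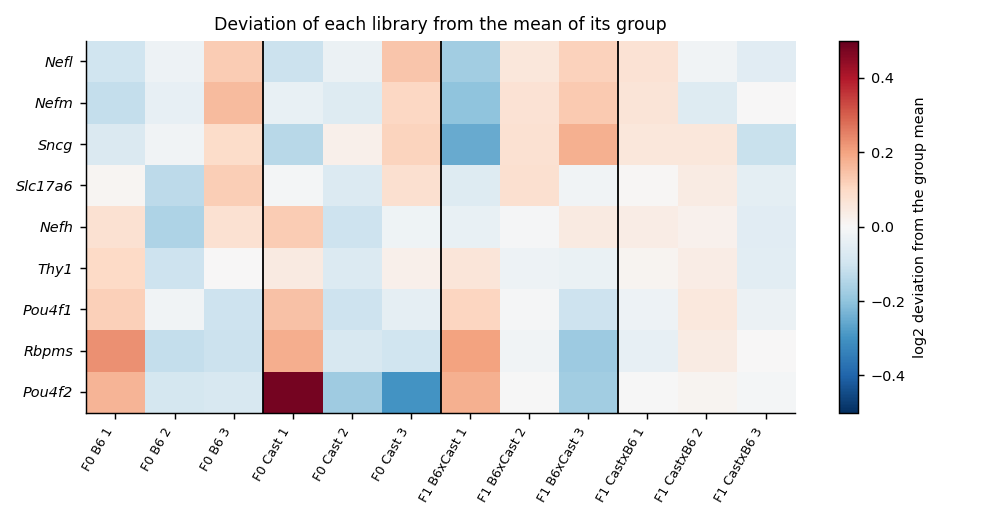
Log2 deviation of each gene (rows) from the mean of its group in each of the 12 libraries (columns), red above and blue below. In replicate 1 of F0 B6, F0 Cast and F1 B6xCast the rows of Nefl, Nefm and Sncg are blue and those of Pou4f1, Rbpms and Pou4f2 red, the deepest red being Pou4f2 in F0 Cast at 0.48.

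By the same measure, the genes most like the mean of the 9 among 10631 others whose mean reached 100 count equivalents were Ppp1cb (r = 0.97), Fam126b (0.94), Rpl5 (0.93), Armc10 (0.92) and Nrsn1 (0.90), over 12 libraries. The mean of the 9 joins trios that ran against each other, so it need not follow any single member. These r are the highest among all genes compared, and their size was not tested. Ppp1cb encodes a catalytic subunit of protein phosphatase 1 and Rpl5 a ribosomal protein.

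Other genes known from ganglion cells were read from a list of 28, of which 26 were tested in F0. Of the others, Trpv1 was under 10 count equivalents in every library and L1cam is X-linked. In F0 Cast/EiJ 10 of the 26 were lower, against 16.6% of all genes, and 2 higher, against 17.2%, with a median log2 difference of -0.29, while 14 did not pass the test. The 12 calls became 10 without the 3 libraries that stood apart. Cd24a, a surface antigen of young neurons, was at 87.9, 98.6 and 97.7 count equivalents in C57BL/6J and at 34.8, 31.3 and 37.2 in Cast/EiJ (log2 difference -1.44, adjusted p = 0.00027 by limma). Penk, the enkephalin precursor, was lower, at -1.05 (adjusted p = 0.012 by limma), Spp1, osteopontin of alpha ganglion cells, at -0.66 (0.013), and Chrnb3, a nicotinic receptor subunit, at -0.61 (0.0021). Higher in Cast/EiJ were Tac1, the substance P precursor, by 0.65 (adjusted p = 0.011 by limma) and Opn4, the melanopsin of intrinsically photosensitive ganglion cells, by 0.51 (0.018). The calls in this list thus went in both directions between strains, most of them lower.

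Between alleles, 3 of 23 tested were higher and 6 lower from the Cast/EiJ allele, beside the 47.0% of all genes that were called in either direction. For Penk (-1.10 between alleles, adjusted p = 7e-05 by limma) and Opn4 (0.55, 0.00046) the allelic difference was close to the F0 difference, and the remaining difference was 0.06 (adjusted p = 0.93) and -0.04 (0.93). For Tac1 (-0.05, adjusted p = 0.75) and Chrnb3 (-0.15, 0.043) it was small, and the remaining difference was 0.70 (0.021) and -0.46 (0.0067). Spp1 was higher from the Cast/EiJ allele by 0.43 (adjusted p = 0.0013 by limma) in a strain where its level was lower, with a remaining difference of -1.09 (0.0004). In all, the remaining difference was called for 4 of 23, beside 14.0% of all genes, negative for Cd24a (-0.67, 0.03), Chrnb3 and Spp1 and positive for Tac1. That count was 2 without replicate 2 of F0 C57BL/6J.

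Among transcription factors that are relatives or partners of the members, Pou4f3, the third Brn3 factor, was lower in Cast/EiJ at -0.56 (adjusted p = 0.036 by limma, 0.099 without the 3 libraries that stood apart) with a difference between alleles of -0.10 (0.5). Isl2, a LIM-homeodomain factor, was at 15.5, 44.8 and 26.7 count equivalents in C57BL/6J and at 17.7, 13.4 and 14.7 in Cast/EiJ (-0.77, adjusted p = 0.15), and its alleles had too few unique hits to be tested. Isl1, its relative, which bipolar and amacrine cells also express, differed by -0.08 between strains (adjusted p = 0.58) and by 0.20 between alleles (0.019). Against F0 Cast/EiJ, the F1 totals of the 26 genes were higher for 8, against 17.5% of all genes, and lower for 1, against 2379 of 14710. Against the mid-parent level 4 were higher, beside 12.2% of all genes called in either direction. These were Spp1 (0.41), Chrnb3 (0.36), Ndnf (0.33) and Chrna6 (0.26), and the value of Ndnf changed sign with the deposited log expression. With TMM factors the calls numbered 15 against F0 Cast/EiJ and 7 against the mid-parent level.

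A list of 24 genes of the axonal cytoskeleton, axon initial segment and axonal transport was read in the same way. In F0 Cast/EiJ 11 were lower, against 16.6% of all genes, and 13 did not pass the test, at a median of -0.17. The count was 13 without the 3 libraries that stood apart. Prph, peripherin, an intermediate filament protein of axons, was at 48.1, 48.1 and 67.3 count equivalents in C57BL/6J and at 9.81, 22.5 and 23.1 in Cast/EiJ (-1.58, adjusted p = 0.0074 by limma). Uchl1, a neuronal ubiquitin hydrolase, was lower, at -0.60 (0.0034), Nmnat2, an axonal survival enzyme, at -0.57 (0.00059), Tubb3, the neuronal beta-tubulin, at -0.49 (0.002), and Nfasc, neurofascin of the initial segment, at -0.49 (0.00078). Ina, alpha-internexin, which assembles with the neurofilament chains, was at 2010, 1970 and 1920 in C57BL/6J and at 1700, 1690 and 1850 in Cast/EiJ, without overlap but not called (-0.17, adjusted p = 0.075 by limma). These genes are expressed by many retinal neurons and not by ganglion cells alone.

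Of the alleles of these 24 genes, 4 were higher and 7 lower from Cast/EiJ, beside 47.0% called in either direction over all genes. Among those lower were Uchl1 (-0.43, adjusted p = 0.00019 by limma), Prph (-0.54, 0.041), Nfasc (-0.29, 4.3e-06) and Nmnat2 (-0.26, 0.00012). Tubb2a (0.50, adjusted p = 0.0006 by limma) and Gap43, a growth cone protein (0.33, 0.0013), were higher from the Cast/EiJ allele, and their F0 differences of 0.19 (0.35) and 0.26 (0.06) were not called. Tubb3 at -0.06 (adjusted p = 0.31) and Stmn2, a tubulin-binding protein of growing axons, at -0.07 (0.36) differed less between alleles than between strains. The remaining difference was called for 8 of 24, all negative, against 8.31% negative over all genes, including Tubb3 (-0.42, adjusted p = 0.0035 by limma), Stmn2 (-0.37, 0.034), Nmnat2 (-0.31, 0.016) and the kinesin gene Kif3a (-0.27, 0.039). Leaving out a single library gave between 4 and 9 calls, with 4 or 5 without replicate 2 or 3 of F0 C57BL/6J, replicate 1 or 2 of F0 Cast/EiJ, replicate 3 of F1 B6xCast or replicate 2 or 3 of F1 CastxB6. Against F0 Cast/EiJ, 9 were higher in the F1, against 17.5% of all genes. With TMM factors 15 axonal genes were called there, and 77.4% of the calls over all genes were higher. Against the mid-parent level 12.2% of all genes were called. Among the axonal genes Uchl1 (0.32), Kif3a (0.24) and Stmn2 (0.20) were higher there and Scn8a, an axonal sodium channel (-0.14), was lower. The number called was 2 in place of 4 without replicate 1 or 2 of F0 C57BL/6J, replicate 2 or 3 of F0 Cast/EiJ, replicate 2 or 3 of F1 B6xCast, or replicate 1, 2 or 3 of F1 CastxB6.

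Relatives of the members outside the set were read beside them, and differences between genes were not tested. Sncb, which encodes beta-synuclein, differed by 0.27 between strains (adjusted p = 0.064 by limma) and by 0.00 between alleles (0.96), beside the -2.89 of Sncg. Among the vesicular glutamate transporters, Slc17a7 (VGLUT1, of photoreceptors and bipolar cells) differed by -0.02 between strains (0.91), while Slc17a8 (VGLUT3, of an amacrine cell type) was lower in F0 Cast/EiJ by -0.78 (adjusted p = 0.0038 by limma) and from its allele by -0.96 (3.3e-06).

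The intermediate filament genes of glia and progenitors were lower in F0 Cast/EiJ as well. Vim (vimentin, of Mueller glia) was lower, at -0.64 (adjusted p = 0.0038 by limma), Nes (nestin) at -1.56 (0.0014) and Gfap (of astrocytes) at -0.49 (0.027). Unlike Nefm and Nefh, Vim (-0.39, 0.00019) and Nes (-0.80, 0.0062) were also lower from the Cast/EiJ allele, and Gfap was higher from it (0.44, 0.011). Gfap was at 189, 216 and 192 count equivalents in C57BL/6J, at 118, 155 and 154 in Cast/EiJ and between 63.7 and 102 in the F1, below both strains (-0.96 against the mid-parent level, adjusted p = 0.00019 by limma).

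Markers of other cells also moved between the F0 strains, beside the drop of the neurofilament genes and Thy1. Over all genes tested 16.6% were lower in Cast/EiJ. Of 6 horizontal cell genes 3 were lower and 3 did not pass the test, with a summed level of 3816 to 4103 count equivalents in C57BL/6J, 2799 to 2851 in Cast/EiJ and 3526 to 4143 in the F1. The genes called were Tpm3 (-1.34), Lhx1 (-0.70) and Septin4 (-0.40), while Calb1 (0.14), Onecut1 (-0.25) and Onecut2 (0.21) were not. From the Cast/EiJ allele Tpm3 (-0.28) and Septin4 (-0.48) were also lower, and Lhx1 (0.10) was not called. Of 7 cone genes 5 were tested and 3 were lower, with sums of 13314 to 15054, 9525 to 10476 and 11264 to 12920. Of these 3, Opn1sw (-0.18) and Cnga3 (-0.61) were also lower from the Cast/EiJ allele, and Pde6c (0.04) was not called there. Of 9 genes of optic nerve glia, which would come with remains of the nerve head, 5 were tested and 3 were lower (median -1.45), with sums of 969 to 1014, 562 to 591 and 693 to 799. Mag and Mobp, myelin genes, were under 10 count equivalents in every library. From the Cast/EiJ allele 3 of the glial genes were also lower, and S100b was higher (0.48, adjusted p = 0.0064 by limma). The part of these cells in the ganglion cell values was not tested.

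Some amacrine cells share the ganglion cell layer. Of 11 amacrine cell genes tested 5 were higher in Cast/EiJ, against 17.2% of all genes, and 6 did not pass the test (median 0.21), with sums of 20709 to 22117 in C57BL/6J, 24436 to 25281 in Cast/EiJ and 22521 to 24605 in the F1. Of the 5, Gad2 (0.52), Slc6a9 (0.37) and Th (0.73) were also higher from the Cast/EiJ allele, and Tfap2a (0.00) and Pax6 (0.03) were not called there. The rest are set beside 17.2% of all genes higher and 16.6% lower in Cast/EiJ. Of 8 rod genes 2 were higher, and of 9 bipolar cell genes 1 was higher and 1 lower. Of 7 genes of Mueller glia 2 were higher and 2 lower. Of 7 tested genes of the retinal pigment epithelium 2 were lower, of 2 blood genes 1 was lower, and 5 lens genes, at differences from -0.40 to 1.46, did not pass the test.

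**Figure D5:**
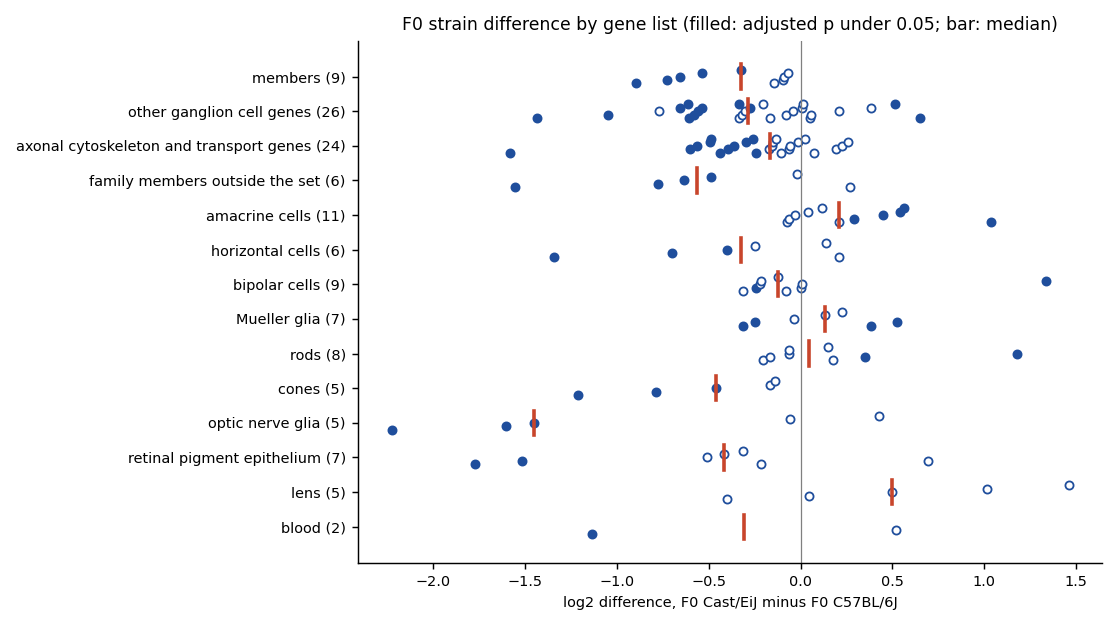
Log2 difference between the F0 strains, Cast/EiJ minus C57BL/6J (horizontal axis), for each tested gene of each list (rows, number tested in parentheses), filled where the adjusted p is under 0.05, with a bar at the median of the list. The 9 members and the axonal genes have filled points below 0 and none above it, and the amacrine cell genes have filled points above 0 and none below it.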

How the data were processed

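Polyadenylated retinal RNA was sequenced as unstranded pairs of 101-base reads after 12 amplification cycles. The authors trimmed reads with Trim Galore 0.2.6, used Bowtie 0.12.9 to align F0 pairs to the transcriptome of their strain and F1 pairs to a hybrid of both (NCBI37 annotation), and ran MMSEQ for the expression estimates. The deposited values are a normalised signal per gene (estimated read pairs scaled to a common library size, called count equivalents here), the natural log of expression, whose exponent is FPKM, and counts of unique hits. A further 54 per-sample columns, which hold posterior SDs and the authors' own comparison statistics, were not used.

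Samples were grouped by their labels. Differences were tested on log2(count equivalents + 1) with limma 3.58.1 (trend, R 4.3.3) and Benjamini-Hochberg adjustment over all genes tested, called at an adjusted p under 0.05. F0 strains were fitted on the 14452 autosomal genes that reached 10 count equivalents in 3 or more libraries. F1 totals, the mean of both allele columns, were fitted with F0 on 14710 genes by the same minimum. Alleles, the remaining difference and the parent-of-origin difference were fitted in 1 model of F0 and F1 columns, with alleles of a library correlated (0.135), on the 13414 autosomal, polymorphic genes whose unique hits to either allele averaged 10 or more over the F1 libraries. On this scale folds of low genes are understated. The scripts were tested on simulated data. Each library is a separate pool, so p-values measure the spread between pools.

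Alternatives were pseudocounts of 0.1 and 5, a mean of at least 50, no filter, TMM factors, the deposited log expression, a replicate block, no library block, each library left out, edgeR 4.0.16 on unique hits, and DESeq2 1.42.0 on unique hits and rounded count equivalents. Leaving out a library that a comparison does not use keeps its difference and changes only the error estimate. Leaving out the replicate numbered 1 of F0 C57BL/6J, F0 Cast/EiJ and F1 B6xCast together was chosen after seeing the data. Wilson 95% intervals cover counting error only, since read pairs carried no molecular identifiers. The 9 genes and all lists were chosen with earlier results of these data known. From the ganglion cell and axonal lists the text names up to 4 called genes with the largest difference in the strain, allelic and mid-parent comparisons, plus Ina, Prph, Isl1, Isl2, Pou4f3 and Tubb3. From the list of relatives it names all 6, 1 further relative is not reported here, and the few further genes named with a list were chosen after their values were seen.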

Additional observations from a re-analysis of the deposited data

Results flagged for a closer look

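For 6 of the 9 genes the F0 strain difference and the F1 allelic difference were not the same, by a test of the difference between them (limma, adjusted p under 0.05 over all genes). The F0 difference minus the allelic difference was -0.496 for Nefl, -0.535 for Nefm, -0.872 for Nefh, -0.458 for Thy1 and -0.357 for Slc17a6 on the log2 scale, and 2.824 for Sncg. A difference in cell number and a trans-regulatory difference cannot be told apart in these values. The value of Sncg also holds its allelic gap, which rests on 179 to 298 unique hits per F1 library, and the part of mapping in that gap was not tested. Over 18 sets of 6 F1 values no single library lay apart from the others by Dixon's criterion.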

How the results depend on the processing

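The F0 differences of Nefl, Nefm, Nefh and Thy1, the allelic differences of Sncg, Thy1 and Slc17a6 and the remaining differences of Nefl, Nefm, Nefh, Thy1 and Sncg were called in every alternative run. Pou4f1 in F0, Nefl between alleles and against C57BL/6J, Nefh against C57BL/6J and the mid-parent level, and Slc17a6 in the remaining difference lay near the threshold. Few allele-specific unique hits limit Sncg, Pou4f1, Pou4f2 and Rbpms. The cause of each change below was not tested.

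Without a filter on low values the F0 calls numbered 3161 over all genes, 4 among other ganglion cell genes and 5 among axonal genes, the remaining difference had 5 axonal calls, 1 member was called against C57BL/6J, and the mid-parent comparison had 0 members (1 of 9 with the filter, by limma) and 1 axonal gene. With TMM factors 1 member was called against C57BL/6J, 15 other ganglion cell genes and 15 axonal genes against Cast/EiJ, and 3 members, 3004 genes in all, 7 other ganglion cell genes and 7 axonal genes against the mid-parent level. The deposited log expression gave 1 member against C57BL/6J and 2 axonal genes against the mid-parent level. Without the 3 libraries that stood apart 2 members were called against the mid-parent level.

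Leaving out single libraries gave 2 to 5 calls of other ganglion cell genes and 4 to 9 of axonal genes for the remaining difference. It gave 1 to 4 members against C57BL/6J (1 without replicate 3 of F0 C57BL/6J or of F1 CastxB6), and 0 to 2 members and 2 to 4 axonal genes against the mid-parent level.

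Replicate numbers did not meet the criterion for pairing (r over 0.1 in every pair), since same-numbered libraries correlated in their deviations at r from -0.114 to 0.299, with 6 of 18 pairs over 0.1. Pairs among F0 C57BL/6J, F0 Cast/EiJ and F1 B6xCast lay between 0.034 and 0.299 and pairs with F1 CastxB6 between -0.114 and 0.019, and 5 of 12 libraries correlated best with their own number. With a replicate block 17 axonal genes were called in F0 (11 without), 14 other ganglion cell genes in F0 (12 without), 7 other ganglion cell genes for the remaining difference (4 without), and 6376 genes in F0. The members called under the block numbered 5 in F0, 4 between alleles, 6 for the remaining difference, 4 against C57BL/6J and 5 against Cast/EiJ, the calls gained being Nefm (adjusted p = 0.039 by limma) and Sncg (0.042).

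Differences near 0 changed sign. So did the called differences of Ndnf between alleles (-0.271, adjusted p = 0.0021 by limma) and against the mid-parent level (0.326, 0.005). With TMM factors the values were 0.111 for Pou4f2 against Cast/EiJ, 0.077 for Pou4f1, 0.035 for Pou4f2 and 0.077 for Slc17a6 against the mid-parent level, and 0.002 for Sncb between alleles. With the deposited log expression they were 0.073 for Pou4f2 against Cast/EiJ, 0.172 for Pou4f1, 0.007 for Pou4f2 and 0.050 for Slc17a6 against the mid-parent level and -0.004 for Ndnf there, and 0.041 for Ndnf, 0.002 for Ina and 0.029 for Sncb between alleles. Without the libraries that stood apart they were 0.190 for Pou4f2 against Cast/EiJ, 0.032 for Pou4f1, 0.068 for Pou4f2 and 0.008 for Slc17a6 against the mid-parent level, and 0.013 for Tac1 and 0.010 for Sncb between alleles.

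Leaving out single libraries turned further values. F0 ranges were -0.329 to 0.060 for Pou4f2, -0.185 to 0.019 for Rbpms, -0.137 to 0.019 for Isl1 and -0.078 to 0.048 for Slc17a7. Allelic ranges were -0.042 to 0.023 for Nefm, -0.125 to 0.054 for Pou4f1, -0.004 to 0.066 for Pou4f2, -0.096 to 0.013 for Tac1, -0.039 to 0.000 for Ina and -0.024 to 0.019 for Sncb. For Pou4f2 the remaining difference ran from -0.357 to 0.032, and the difference from Cast/EiJ from -0.155 to 0.234. Mid-parent ranges were -0.034 to 0.029 for Pou4f1, -0.125 to 0.070 for Pou4f2 and -0.040 to 0.022 for Slc17a6.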
